A study of Homo sapiens with 6 samples.

Results

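The 10 genes described here are the best known readouts of the epithelial-mesenchymal transition (EMT): the transcription factors TWIST1, TWIST2, SNAI1, SNAI2, ZEB1 and ZEB2, the filament protein vimentin (VIM), and the cadherins CDH1, CDH2 and CDH3. They were picked by name from a table of 27914 genes, by a rule that uses no measured value but was set with earlier results of these data known. All 10 were among the 12096 genes that were tested. RNA was sequenced from MCF10A, an established non-tumorigenic human breast epithelial cell line. The 3 control samples, labelled SCRin, had a wild-type genotype, and the 3 compared samples had the genotype α-/-;βin. Every sample of both groups had received doxycycline for 3 days. Genotype cannot be told apart from any other difference between the cells of the groups. The cells with the α-/-;βin genotype are called PI5P4K-depleted here after the series title, which names PI5P4K, a kinase family that phosphorylates the signalling lipid PI-5-P. The labels do not spell out SCR, in, α or β, do not say whether a line was 1 clone, and do not say whether replicates came from separate cultures. P-values here therefore speak only of the spread among these 6 samples, and that spread may be technical.

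During EMT, epithelial cells loosen their junctions and take on a migratory, spindle-like state. SNAI and ZEB proteins are zinc finger repressors and TWIST proteins are basic helix-loop-helix factors, and all of them bind E-boxes, short DNA words that occur in the promoter of the E-cadherin gene CDH1. In the textbook form of the switch E-cadherin falls while N-cadherin (CDH2) and vimentin rise. MCF10A cells carry features of basal breast epithelium, a layer that normally makes P-cadherin (CDH3) and SNAI2 as well. The ZEB genes and the miR-200 family repress each other, which makes ZEB levels a classic readout of the balance between the epithelial and the mesenchymal state.

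The microRNAs of that loop are shown because their seeds decide which of the 10 transcripts carry a match. The mature sequences below are from RefSeq (GRCh38.p14), 5′ to 3′, with the seed, bases 2 to 8, in capitals. The first 3 share 1 seed, the next pair shares another, and miR-205, which is also known to repress ZEB genes, has its own.
miR-200b-3p: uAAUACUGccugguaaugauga
miR-200c-3p: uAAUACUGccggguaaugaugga
miR-429: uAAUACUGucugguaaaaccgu
miR-200a-3p: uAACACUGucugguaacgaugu
miR-141-3p: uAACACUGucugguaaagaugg
miR-205-5p: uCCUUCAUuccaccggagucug

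Among the 10 genes, matches to the miR-200 seeds were concentrated in ZEB1 and ZEB2. Counts are of 7-base matches on the sense strand of the 3′ UTR, in 1 GENCODE v29 transcript per gene. ZEB1 held 6 matches to the seed of miR-200b, miR-200c and miR-429 (CAGTATT), the highest number among 11165 tested genes with a 3′ UTR and shared with 2 others, and ZEB2 held 5. SNAI2 held 1 match and the other 7 genes held 0. Of all 11165 genes, 19.7% had at least 1 such match and 1.11% had 3 or more. For miR-200a and miR-141 (CAGTGTT) ZEB1 held 3 matches and ZEB2 held 4, the other 8 genes held 0, and 21.8% of all genes had at least 1. For miR-205 (ATGAAGG) ZEB1 and CDH3 held 1 each, the other 8 genes held 0, and 13.4% of all genes had at least 1. These UTRs differ in length, at 2549 bases for ZEB1 and 5370 bases for ZEB2, and a match of letters is not a measured site. The 3 ZEB1 and 4 ZEB2 matches that extend to 8 bases for miR-200b, miR-200c and miR-429 are printed below from GENCODE v29. The match is in capitals, and each line is named by the position of its first capital base after the stop codon.
ZEB1 at 369: cattgttttatcttatCAGTATTA
ZEB1 at 1243: gctgatttttacctatCAGTATTA
ZEB1 at 1313: atgtcttcaaacctggCAGTATTA
ZEB2 at 455: tcgcactacaatgcatCAGTATTA
ZEB2 at 813: tttgaagcacccatgtCAGTATTA
ZEB2 at 898: tgttcattaattttgtCAGTATTA
ZEB2 at 1029: ttcatactgtagtgtaCAGTATTA

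Of the 10 genes, 1 fell and 0 rose in PI5P4K-depleted cells. TWIST1 fell, while TWIST2, CDH3, CDH2, CDH1, VIM, SNAI1, SNAI2, ZEB1 and ZEB2 did not pass the test. Levels are in TPM (a scaled transcript abundance), a unit that corrects for transcript length, so that different genes can be set side by side. Changes are on the log2(TPM + 1) scale, PI5P4K-depleted minus control, from limma across all 12096 genes, with Benjamini-Hochberg adjusted p-values and a threshold of 0.05. By this rule 2.19% of all tested genes were called, 1.83% lower and 0.364% higher. In 3 of the 10 genes (TWIST1, TWIST2 and CDH3) the 3 libraries of one group lay wholly above those of the other, against 17.1% of all tested genes. The median log2 change was -0.13 over the 10 genes and -0.01 over all tested genes. Of the 10 genes 7 lay below 0, as did 6445 of all 12096 tested genes. In bulk RNA, fewer cells expressing a gene and less RNA per cell cannot be told apart.

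**Figure D1:**
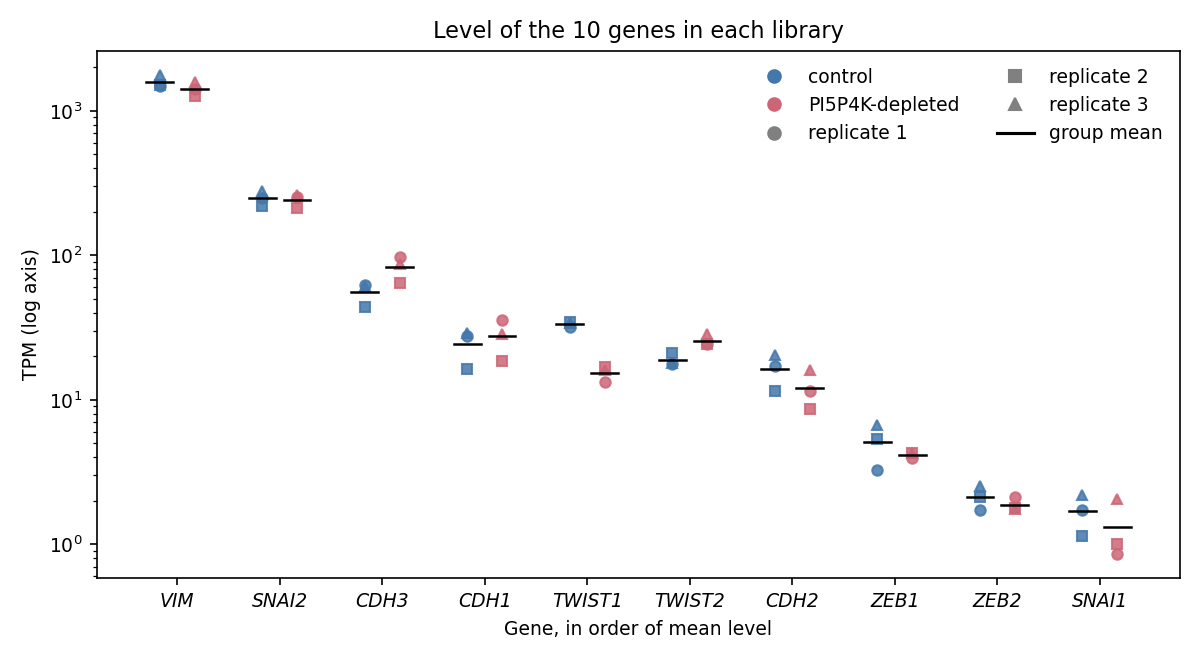
TPM (log axis) of the 10 genes in each library, ordered by mean level, with controls in blue, PI5P4K-depleted libraries in red, a symbol for each replicate number and a black line at each group mean. The groups are apart for TWIST1, TWIST2 and CDH3 and interleave for the other 7 genes.

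**Figure D2:**
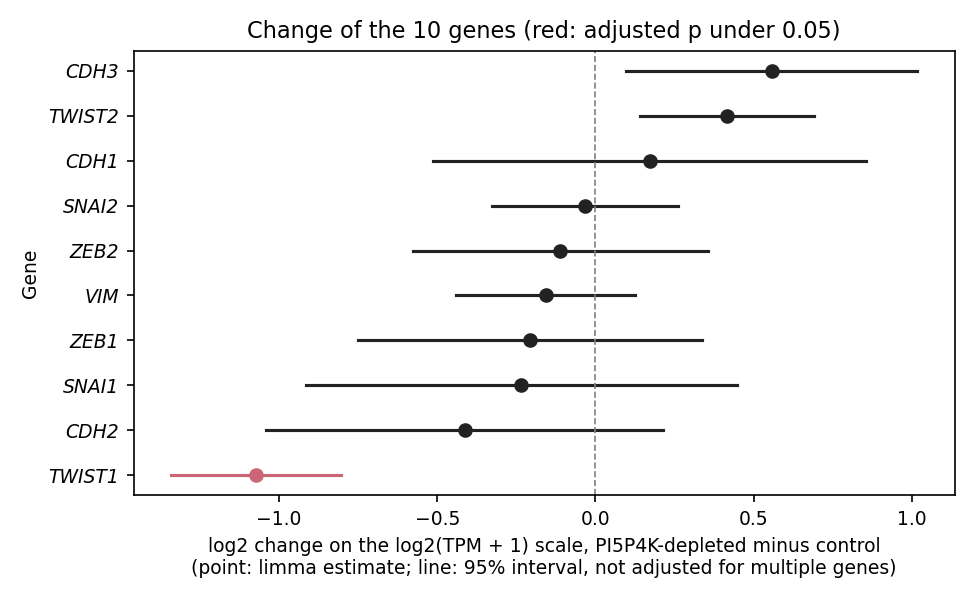
Log2 change of each gene (PI5P4K-depleted minus control, log2(TPM + 1) scale) from limma with its 95% interval, which is not adjusted for the number of genes tested. TWIST1 at -1.07 is the only gene with an adjusted p under 0.05, while the intervals of CDH3 and TWIST2 lie above 0 without passing that threshold.

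The mRNA levels of the 10 genes spanned a wide range, with VIM and SNAI2 at the top and ZEB2 and SNAI1 at the bottom. In every library the order ran from VIM through SNAI2 and CDH3 to CDH1, and CDH2 lay above ZEB1 and ZEB1 above ZEB2. VIM was 6.40 times as high as SNAI2 in controls and 5.88 times in PI5P4K-depleted cells, from group means of TPM. The genes that changed places were CDH1, TWIST1 and TWIST2. In controls TWIST1 lay above CDH1 and TWIST2 in all 3 libraries, and in PI5P4K-depleted cells it lay below both in all 3. The ranges of ZEB2 and SNAI1 overlapped in both groups, and those of TWIST2 and CDH2 overlapped in controls, so these neighbours did not differ beyond their spread.

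TWIST1, which directs mesoderm and neural crest development and drives EMT when produced in epithelial cells, had the largest log2 change of the 10 genes. It measured 31.8, 34.4 and 33.99 TPM in the controls and 13.3, 16.8 and 16.1 TPM in PI5P4K-depleted libraries. All 3 PI5P4K-depleted libraries lay far below the lowest control. The mean went from 33.4 ± 1.398 to 15.4 ± 1.87 TPM (SD, n = 3), or 46.2% of control, with a log2 change of -1.07 (SE 0.11, 95% interval -1.34 to -0.80) and a limma adjusted p of 0.00603. The exact two-sided permutation test on TPM gave p = 0.1, which is the smallest value that 3 samples against 3 allow.

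The genes around TWIST1 on chromosome 7 also had lower levels in PI5P4K-depleted cells. All 20 of the nearest tested genes, 10 on each side, had a log2 change below 0, and 9 of them were lower by the test. Their median log2 change was -0.82, with a range from -1.34 to -0.03. TWISTNB, the next tested gene on one side and a subunit gene of RNA polymerase I, fell from 70.6 ± 4.69 to 36.5 ± 1.405 TPM (SD, n = 3; log2 change -0.93, limma adjusted p = 0.00489). HDAC9, a class II histone deacetylase and the next tested gene on the other side, did not pass at 2.36 ± 0.207 TPM in controls against 1.07 ± 0.0822 TPM in PI5P4K-depleted cells (SD, n = 3; log2 change -0.70, limma adjusted p = 0.183). SNX13, a sorting nexin, fell from 31.5 ± 4.01 to 15.2 ± 3.53 TPM (SD, n = 3; limma adjusted p = 0.0367), while AHR, the dioxin receptor, did not pass with a log2 change of -0.68. ITGB8, an integrin subunit, and the pseudogene RPL23P8 did not pass either, at -0.49 and -0.23. The TWIST1 value lies within the range of its neighbours, and what part this stretch plays in the TWIST1 value was not tested. DNA copy number was not analysed here.

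Few neighbours of the other 9 genes passed the test. Around TWIST2, VIM, SNAI1, SNAI2, ZEB1 and ZEB2, 0 of 20 neighbours passed the test, and the median log2 change of the 20 neighbours of each lay between -0.12 and 0.06. Near CDH1 and CDH3, which are next to each other among the tested genes of chromosome 16, HAS3, a hyaluronan synthase, rose from 4.05 ± 1.46 to 13.1 ± 2.34 TPM (SD, n = 3; log2 change 1.51, limma adjusted p = 0.0199). It was the only one called of 20 neighbours, whose median was 0.05. Next to CDH2 on chromosome 18, DSC3, a desmosomal cadherin of basal epithelia, rose from 16.4 ± 1.68 to 28.2 ± 1.08 TPM (SD, n = 3; log2 change 0.75, limma adjusted p = 0.0154). It too was the only call among 20 neighbours, with a median of 0.04.

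**Figure D3:**
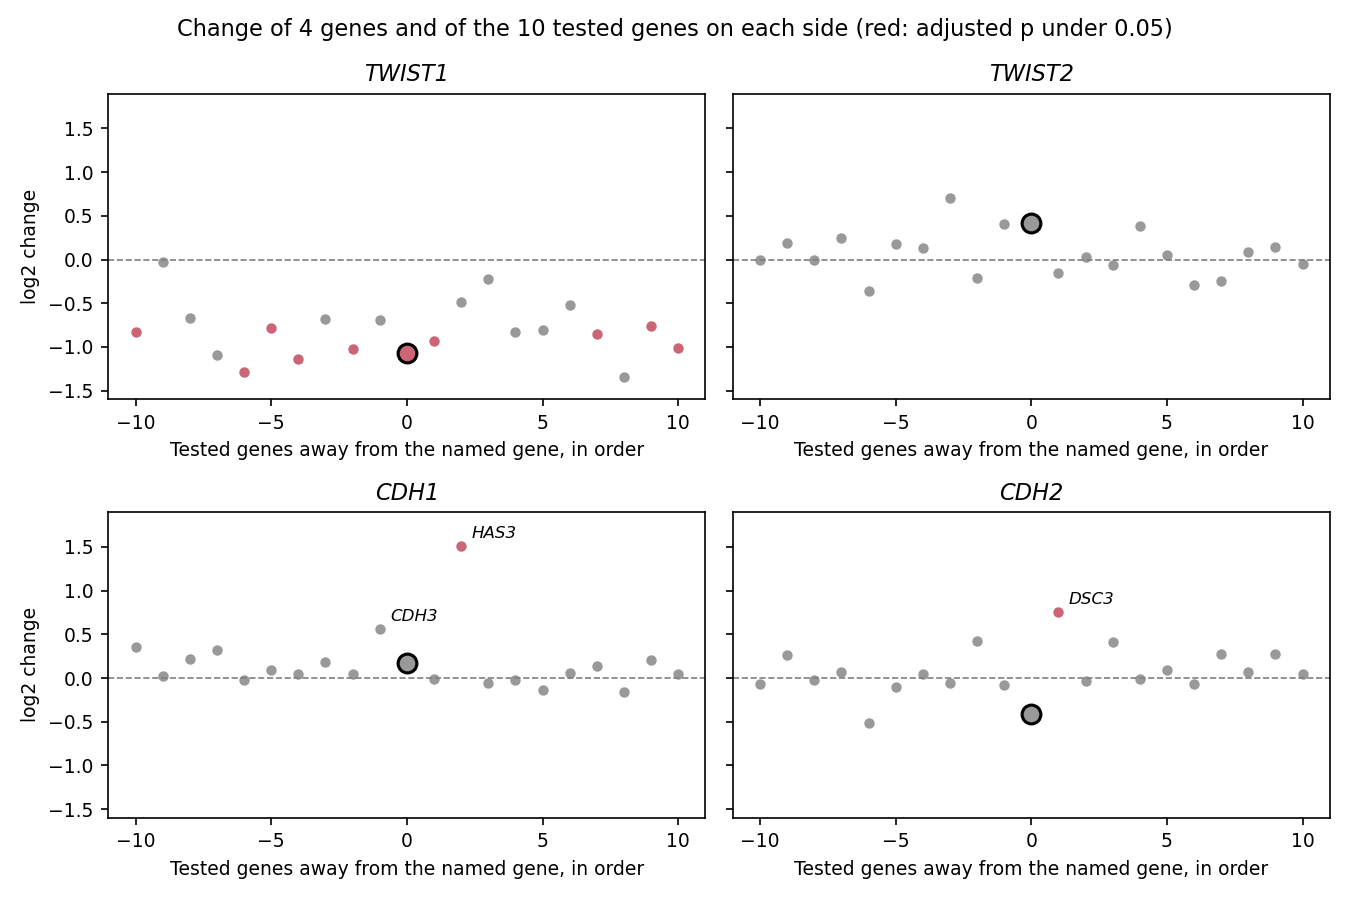
Log2 change (log2(TPM + 1) scale, y axis) of TWIST1, TWIST2, CDH1 and CDH2 (large outlined points) and of the 10 tested genes on each side in RefSeq order (x axis, steps in tested genes), with red for an adjusted p under 0.05. All 20 neighbours of TWIST1 lie below 0, while those of the other 3 genes scatter around 0 apart from single called genes such as HAS3 and DSC3.

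TWIST2, the close relative of TWIST1 on chromosome 2, did not fall with it. It measured 17.8, 21.2 and 17.9 TPM in the controls and 24.3, 24.2 and 28.5 TPM in PI5P4K-depleted libraries. All 3 PI5P4K-depleted libraries lay above all controls, with means of 19.0 ± 1.95 and 25.7 ± 2.43 TPM (SD, n = 3). The log2 change of 0.42 (SE 0.12, 95% interval 0.14 to 0.69) did not pass over all genes, with a limma adjusted p of 0.189, and the exact permutation p was 0.1.

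Since TWIST1 lay below and TWIST2 above all controls in every PI5P4K-depleted library, the ratio and shares of the pair had to lie apart. TWIST1 was 1.79, 1.62 and 1.89 times as high as TWIST2 in the controls and 0.547, 0.693 and 0.566 times as high in PI5P4K-depleted cells, so the more abundant paralog was TWIST1 in each control and TWIST2 in each PI5P4K-depleted library. TWIST2 made up 36.2% ± 1.84 of the summed TPM of the pair in controls and 62.5% ± 3.02 in PI5P4K-depleted cells (SD, n = 3). The sum itself was 49.5, 55.6 and 51.9 TPM in the controls and 37.6, 41.1 and 44.6 TPM in PI5P4K-depleted libraries. The groups did not overlap in the sum, which was not fixed in that way. The sum, shares and ratio of the pair were not among the planned measures. They were described per library and not tested.

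SNAI2, also known as Slug, which keeps basal breast cells in their undifferentiated state, was the most abundant of the 6 factors in every library. It measured 251, 218 and 277 TPM in the controls and 252, 213 and 263 TPM in PI5P4K-depleted libraries. The groups overlapped throughout, at 249 ± 29.5 and 243 ± 26.6 TPM (SD, n = 3), with a log2 change of -0.03 (SE 0.12, 95% interval -0.33 to 0.26, limma adjusted p = 0.963). SNAI2 accounted for 77.2% to 81.7% of the summed TPM of the 6 factors in controls and for 81.6% to 85.005% in PI5P4K-depleted cells.

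SNAI1, or Snail, the fast-turnover relative that initiates many forms of EMT, had the lowest group means of the 10 genes, though it lay above ZEB2 in 2 of the 6 libraries. It measured 1.74, 1.13 and 2.18 TPM in the controls and 0.857, 1.01 and 2.06 TPM in PI5P4K-depleted libraries. The third library of each group was the highest and the groups overlapped, with means of 1.68 ± 0.528 and 1.31 ± 0.658 TPM (SD, n = 3). Its log2 change was -0.23 (SE 0.29, 95% interval -0.91 to 0.45, limma adjusted p = 0.841). SNAI2 exceeded SNAI1 by 127 to 192 times in controls and by 128 to 294 times in PI5P4K-depleted cells.

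ZEB1, the repressor that closes the loop with the miR-200 family, measured 3.28, 5.39 and 6.74 TPM in the controls and 3.98, 4.26 and 4.26 TPM in PI5P4K-depleted libraries. The controls spread on both sides of the PI5P4K-depleted libraries, which lay close together. The means were 5.14 ± 1.74 and 4.17 ± 0.165 TPM (SD, n = 3), with a log2 change of -0.21 (SE 0.23, 95% interval -0.75 to 0.34, limma adjusted p = 0.815). ZEB1-AS1, a non-coding gene on the opposite strand at the ZEB1 start, had 1.99, 2.22 and 4.57 TPM in the controls and 1.01, 0.993 and 1.78 TPM in PI5P4K-depleted libraries, lower in every PI5P4K-depleted library but not past the threshold (log2 change -0.76, limma adjusted p = 0.386). Strand use in the counting is not stated in the labels or notes used here, so reads of such partners cannot be told apart.

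ZEB2 was lower still, and its groups interleaved. It measured 1.72, 2.11 and 2.54 TPM in the controls and 2.11, 1.80 and 1.74 TPM in PI5P4K-depleted libraries, with means of 2.12 ± 0.406 and 1.88 ± 0.199 TPM (SD, n = 3). Its log2 change was -0.11 (SE 0.20, 95% interval -0.58 to 0.35, limma adjusted p = 0.907). ZEB1 was 1.91 to 2.66 times as high as ZEB2 in controls and 1.88 to 2.45 times in PI5P4K-depleted cells, the ranges overlapping. ZEB2-AS1 was listed at 0 in every library.

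Since the factors act through E-boxes, the 300-base RefSeq windows from 250 bases before to 50 bases after a gene start (GRCh38.p14) were searched for CANNTG and for CACCTG, the form that SNAI and ZEB proteins prefer, on both strands; every CACCTG is also a CANNTG. Windows were matched for 5 of the 10 genes, TWIST2, VIM, ZEB1, ZEB2 and CDH2, and not for TWIST1, SNAI1, SNAI2, CDH1 and CDH3. Over all 35116 windows, 68.7% held CANNTG and 20.6% held CACCTG. ZEB1 had 7 windows, of which 4 held CANNTG and 2 held CACCTG. ZEB2 held CANNTG in its 1 window and CDH2 in 1 of 2, without CACCTG, and the windows of TWIST2 and VIM held neither word. The ZEB1 window with 3 CACCTG matches is printed because it has the most among these 5 genes. It covers chr10:31318966-31319265 on the plus strand, with the matches (CACCTG or its reverse complement CAGGTG) in capitals.
ZEB1 start: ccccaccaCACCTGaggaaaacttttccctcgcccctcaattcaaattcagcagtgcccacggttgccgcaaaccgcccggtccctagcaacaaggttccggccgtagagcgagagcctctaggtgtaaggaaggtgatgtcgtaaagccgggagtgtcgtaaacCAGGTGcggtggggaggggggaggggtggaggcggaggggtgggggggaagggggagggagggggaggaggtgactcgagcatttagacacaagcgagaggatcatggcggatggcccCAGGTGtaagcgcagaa

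VIM, the intermediate filament protein that marks mesenchymal cells, was strongly expressed in both groups, above 99.1% of all tested genes by its mean. It measured 1489.9, 1502 and 1780 TPM in the controls and 1426, 1265 and 1591 TPM in PI5P4K-depleted libraries. The highest PI5P4K-depleted library lay above the lower pair of controls, so the groups overlapped, with means of 1591 ± 164 and 1427 ± 163 TPM (SD, n = 3). The log2 change was -0.16 (SE 0.12, 95% interval -0.44 to 0.13, limma adjusted p = 0.700). VIM-AS1, on the opposite strand, was at 3.02 and 2.48 TPM on average. Of 12 genes listed as filament partners of vimentin, DES, GFAP, NES, SYNM, INA, NEFL, NEFM and NEFH averaged under 1 TPM and were not tested. Among the 4 that were tested, LMNA, LMNB1, LMNB2 and PLEC, 0 passed, with a median log2 change of -0.05. The most abundant, LMNA, which encodes the nuclear lamins A and C, had 457 ± 20.1 and 397 ± 31.6 TPM (SD, n = 3; limma adjusted p = 0.435).

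Among the cadherins, which join neighbouring cells through calcium-dependent contacts, CDH3 (P-cadherin of basal epithelia) was the most abundant. CDH3 measured 62.6, 43.9 and 61.5 TPM in the controls and 97.2, 64.7 and 87.05 TPM in PI5P4K-depleted libraries. Every PI5P4K-depleted library lay above every control, although the second library was the lowest of its group in both. The means were 56.0 ± 10.5 and 83.0 ± 16.6 TPM (SD, n = 3), or 148% of control, with a log2 change of 0.56 (SE 0.19, 95% interval 0.10 to 1.02). With a limma adjusted p of 0.314 and an exact permutation p of 0.1, CDH3 did not pass.

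CDH1, E-cadherin of epithelial junctions, measured 27.6, 16.4 and 29.2 TPM in the controls and 35.8, 18.6 and 28.7 TPM in PI5P4K-depleted libraries. The second library was again the lowest of each group, and the groups overlapped at 24.4 ± 6.94 and 27.7 ± 8.65 TPM (SD, n = 3). Its log2 change of 0.17 had a 95% interval from -0.51 to 0.85 (SE 0.29, limma adjusted p = 0.899). This interval includes changes of either sign in E-cadherin mRNA.

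CDH2, N-cadherin, which takes the place of E-cadherin in the classical switch, measured 17.01, 11.5 and 20.5 TPM in the controls and 11.5, 8.62 and 16.01 TPM in PI5P4K-depleted libraries. The second library was the lowest of each group for this gene too, and the groups overlapped. The means were 16.3 ± 4.51 and 12.1 ± 3.72 TPM (SD, n = 3), with a log2 change of -0.41 (SE 0.27, 95% interval -1.04 to 0.21, limma adjusted p = 0.641). Leaving out 1 library moved it between -0.63 (without control replicate 2) and -0.21 (without PI5P4K-depleted replicate 2), with -0.24 without control replicate 3 and -0.62 without PI5P4K-depleted replicate 3.

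Shares of the summed TPM of CDH1, CDH2 and CDH3 describe their make-up within each library, whatever the sum. CDH3 made up 58.4%, 61.1% and 55.3% of the sum in the controls and 67.2%, 70.4% and 66.1% in PI5P4K-depleted cells. CDH2 made up 15.9%, 16.1% and 18.4% in the controls and 7.98%, 9.38% and 12.2% in PI5P4K-depleted cells. For both shares the groups did not overlap, whereas the share of CDH1, at 24.95% ± 1.82 and 22.3% ± 2.31 (SD, n = 3), overlapped. Set against each other, CDH2 stood at 0.673 ± 0.0489 of CDH1 in controls and 0.448 ± 0.119 in PI5P4K-depleted cells, and CDH3 at 3.495 ± 0.431 and 7.12 ± 1.53 times CDH2 (SD, n = 3). The groups did not overlap in either ratio. These shares and ratios were formed within each library and were not tested. The shares were planned, and the ratios between cadherins were added outside the plan.

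**Figure D4:**
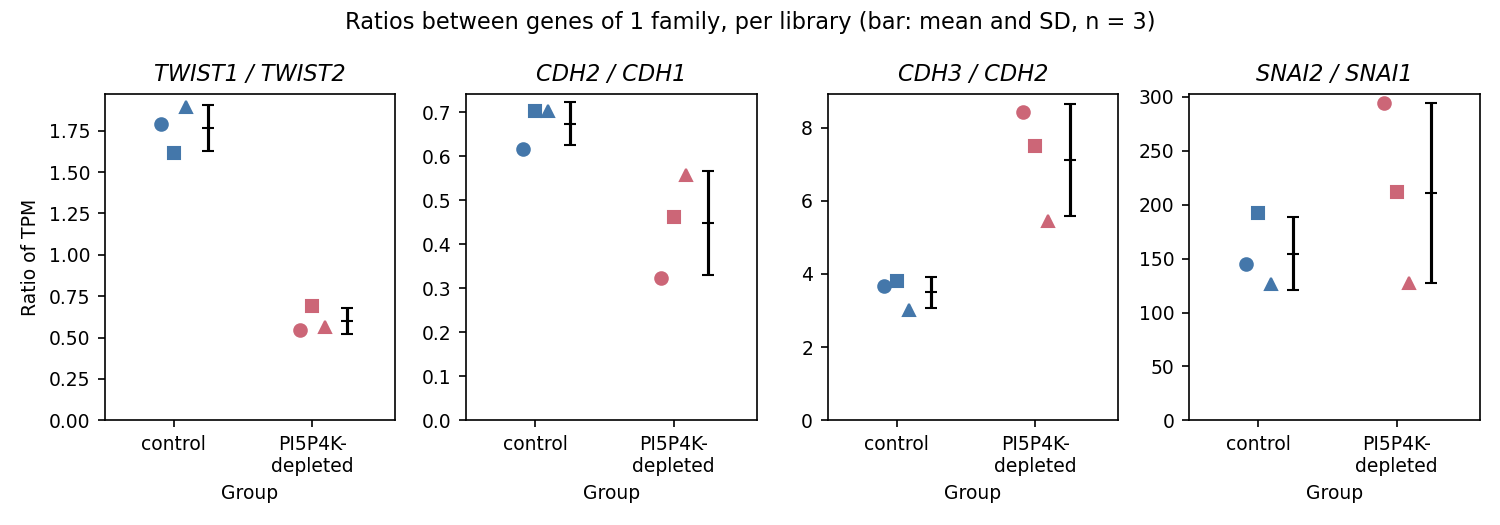
Ratio of TPM in each library (symbols as replicate numbers, circle 1, square 2, triangle 3) for TWIST1 over TWIST2, CDH2 over CDH1, CDH3 over CDH2 and SNAI2 over SNAI1, with the group mean and SD (n = 3) beside the points. The groups are apart in the first 3 ratios, which were not among the planned measures. They overlap in the last, which was planned. The first ratio had to lie apart, since TWIST1 and TWIST2 were each apart in opposite directions. ZEB1 over ZEB2, also planned, overlapped and is not shown.

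Around the 10 genes, 9 lists of EMT genes held 174 names, of which 129 were tested, and 2 of the 129 passed, both higher. That is 1.55%, near the 2.19% of all tested genes. At least 1 lower call appeared in these lists under 10 of 14 alternatives. The median log2 change over the 129 was 0.01, against -0.01 over all tested genes. EPCAM, an epithelial adhesion molecule of the list of epithelial junction and polarity genes, measured 9.75, 10.9 and 9.40 TPM in the controls and 48.5, 55.4 and 44.6 TPM in PI5P4K-depleted libraries (log2 change 2.19, SE 0.12, limma adjusted p = 0.000847). The PI5P4K-depleted libraries lay far above the controls. EPCAM passed under all 14 alternatives. The other 20 tested genes of that list did not pass, and its median was 0.07. Among them RAB25, a small GTPase of epithelial membrane recycling chosen after its values were seen, went the other way, at 3.79, 1.75 and 1.75 TPM in the controls and 0.176, 0 and 0.176 TPM in PI5P4K-depleted libraries. All PI5P4K-depleted libraries lay below the controls, at a log2 change of -1.57 (limma adjusted p = 0.0584, against 0.0277 to 0.168 over its alternatives). The list had 2 calls in place of 1 without the mean-variance trend or without short RNA genes, and RAB25 was the added call. Without PI5P4K-depleted replicate 1 it also had 2, and the added call was MUC1, lower and chosen after its values were seen. The replicate block gave 3 calls in the list, RAB25 among them.

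NECTIN1, an immunoglobulin-like adhesion molecule that helps to assemble cadherin junctions, was the only one of 12 tested catenins and junction partners to pass. It measured 34.4, 30.8 and 35.2 TPM in the controls and 58.1, 62.0 and 55.4 TPM in PI5P4K-depleted libraries, without overlap. It rose from 33.5 ± 2.35 to 58.5 ± 3.30 TPM (SD, n = 3; log2 change 0.79, SE 0.09, limma adjusted p = 0.00815). The median of the 12 was -0.05, with 8 below 0, against 6445 of all 12096 tested genes. Of 15 other classical cadherins only CDH4 and CDH24 reached the filter of 1 TPM, and neither passed. CDH4, the retinal cadherin, had 3.88 ± 1.29 and 2.40 ± 0.649 TPM (SD, n = 3; limma adjusted p = 0.525).

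Of 22 other tested EMT transcription factors, 0 passed, with a median log2 change of 0.09. The most abundant was ID1, which binds basic helix-loop-helix proteins and keeps them from DNA, at 126, 293 and 168 TPM in the controls and 187, 384 and 241 TPM in PI5P4K-depleted libraries. Its second library was the highest of each group, and the groups overlapped (limma adjusted p = 0.691). Of 24 corepressors and turnover factors of SNAI, ZEB and TWIST, 0 passed, with a median of 0.07. CSNK1A1, the casein kinase that primes proteins for GSK3B, was at 322 ± 12.6 and 321 ± 8.38 TPM (SD, n = 3; limma adjusted p = 0.992).

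Among 9 tested epithelial maintenance factors, 0 passed and the median log2 change was 0.33, with 6 above 0, against 5651 of all 12096 tested genes. The most abundant was MIR205HG, the host transcript of miR-205, at 294, 276 and 224 TPM in the controls and 356, 419 and 308 TPM in PI5P4K-depleted libraries. Every PI5P4K-depleted library lay above the controls, but the log2 change of 0.44 did not pass (limma adjusted p = 0.291). The count of 0 became 1 without control replicate 1 and 2 with the replicate block. TP63, chosen after its values were seen, passed as higher in both. It had 18.9, 13.1 and 16.2 TPM in the controls and 29.6, 26.0 and 25.1 TPM in PI5P4K-depleted libraries, without overlap. Its log2 change was 0.72 (limma adjusted p = 0.0664, against 0.0127 to 0.235 over its alternatives). MIR200CHG, the host of miR-200c and miR-141 and chosen after its values were seen, had 19.6, 16.4 and 2.84 TPM in the controls and 8.74, 5.47 and 3.604 TPM in PI5P4K-depleted libraries. The third control lay below all PI5P4K-depleted libraries, and the gene did not pass (limma adjusted p = 0.734). Mature microRNAs were not measured, so these host levels stand only for themselves.

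Of 24 tested mesenchymal products, 0 passed, with a median of -0.12 and 17 below 0, against 6445 of all 12096 tested genes below 0. That count of 0 turned on the settings: SPARC or MMP2 passed as lower, 1 gene at a time, under 7 of the other settings tried, among them a pseudocount of 0.1 and leaving out control replicate 1 (SPARC) or 2 (MMP2). In 6 of the 24 genes the groups did not overlap, against 17.1% of all tested genes in either direction. These were SPARC, TNC, MMP2, VCAN, POSTN and FBN1, all lower in PI5P4K-depleted libraries. TGFBI, an extracellular matrix protein and the most abundant of the 24, had 4783 ± 1747 and 3568 ± 1386 TPM (SD, n = 3; limma adjusted p = 0.711). SPARC, a secreted collagen-binding protein chosen after its values were seen, had 23.6, 30.5 and 46.9 TPM in the controls and 8.93, 12.2 and 14.4 TPM in PI5P4K-depleted libraries. All PI5P4K-depleted libraries lay below the controls, at a log2 change of -1.40 and a limma adjusted p of 0.0540, against 0.00219 to 0.160 over its alternatives. Of 11 tested TGF-beta inputs, 0 passed, with a median of 0.00. The list holds TGF-beta ligands, their receptors, SMAD genes, SKI and SKIL, whose roles are not all alike. TGFBR2, a TGF-beta receptor, had 111 ± 1.66 and 126 ± 9.89 TPM (SD, n = 3; limma adjusted p = 0.503).

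The genes whose log2 level ran most like that of each of the 10 over the 6 libraries were looked up among genes of at least 5 TPM. For TWIST1 these were MALSU1, CDA and CHCHD2 (Pearson's r of 0.998, 0.998 and 0.997), of which MALSU1 and CHCHD2 lie on chromosome 7 like TWIST1. For CDH1 they were JUP, CLDN7 and ANXA8 (0.996, 0.995 and 0.992), where JUP encodes plakoglobin of cell junctions and CLDN7 a claudin of tight junctions. CDH3 ran most like PHLDA3, DUSP11 and EVPL (0.996, 0.995 and 0.993), VIM like TP53I3, LAMB3 and FAM228B (0.997, 0.997 and 0.996), and SNAI2 like COL4A2, CALR and MCAM (0.998, 0.996 and 0.995). TWIST2 ran most like MARF1, RPRD1A and DOCK1 (0.994, 0.984 and 0.970), and CDH2 like JPT2, GADD45B and ARHGAP22 (0.988, 0.987 and 0.987). The lowly expressed genes ran most like MPZL1, XAB2 and RAB17 for ZEB1 (0.987, 0.984 and 0.981), EXOC8, BIRC2 and C11orf49 for ZEB2 (0.987, 0.981 and 0.976), and ZNF669, PIN4 and BAIAP2L1 for SNAI1 (0.973, 0.971 and 0.969). These values are descriptions: all genes share the same 6 libraries and the same pair of groups, and those named were picked as the highest of all genes compared.

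The libraries were alike in general measures. Between 14738 and 15058 genes were listed above 0 per library, and between 11859 and 12116 reached 1 TPM. PIP4K2A and PIP4K2B encode the α and β PI5P4K enzymes and were read as the genes meant by α and β in the genotype. PIP4K2A had 19.8 to 21.7 TPM in controls and 4.09 to 4.35 TPM in PI5P4K-depleted libraries, and PIP4K2B had 20.8 to 23.1 and 8.20 to 11.6 TPM. All 10 basal epithelial markers were expressed at 1 TPM or more, summing to 5341 to 9841 TPM in controls and 5481 to 9010 TPM in PI5P4K-depleted libraries. Luminal markers reached it in 4 of 10 cases and summed to 633 to 728 TPM in controls and 567 to 680.3 TPM in PI5P4K-depleted libraries, carried by KRT8 and KRT18, with ELF5 at 0. Fibroblast markers, which matter for vimentin, reached it in 3 of 10 cases and summed to 21.7 to 45.2 TPM in controls and 14.5 to 31.8 TPM in PI5P4K-depleted libraries, with COL3A1, THY1 and PRRX1 at 0 in every library. Endothelial markers reached it in 0 of 8 cases, with sums of 0.702 to 2.12 and 1.08 to 1.22 TPM. Leukocyte markers reached it in 2 of 8 cases, CD68 and CD14, with sums of 42.9 to 47.5 and 43.7 to 46.1 TPM and PTPRC at 0, and 0 markers of any of these lists passed the test between the groups.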

How the data were processed

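RNA from 3 control and 3 PI5P4K-depleted samples was sequenced on an Illumina NextSeq instrument after TruSeq library preparation, per the labels' protocols. The authors deposited 1 table of TPM per gene and sample. The submitters' processing notes name hg19 and DESeq2 without a role. No label or note used here names the aligner, quantifier, annotation or strand setting. TPM keeps no total, so read depth is unknown. Control columns matched their samples by name; the columns headed as the experiment were assigned by replicate number to the only other group. 0 columns stayed unmapped.

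TPM was transformed to log2(TPM + 1), which understates changes of low genes such as SNAI1, ZEB2 and ZEB1. Genes averaging 1 TPM or more were tested with limma 3.58.1 in R 4.3.3 (empirical Bayes with a mean-variance trend, two-sided, Benjamini-Hochberg over 12096 genes, threshold 0.05), and single genes by an exact permutation test in SciPy 1.17.1. The limma step was tested on simulated data. Leaving out a library, the filter was applied to the remaining ones.

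The genes and lists were chosen with earlier results of these data known. Genes named were the 10 genes, up to 3 called members per list and direction or else its most abundant member, the 3 genes most correlated with each of the 10, the 3 tested genes on each side, and PIP4K2A and PIP4K2B. Other genes in the text are cell type markers, antisense partners, list members named as tested or untested, or appear only in describing another gene. MMP2, TNC, VCAN, POSTN and FBN1 were chosen after their values were seen. For RAB25, MUC1, MIR200CHG, SPARC and TP63 that choice is stated where they appear. Gene order came from RefSeq GRCh38.p14, matched by symbol for 11974 of the tested genes. The files use another build, so RefSeq gave only chromosomes and neighbours. No p is given for a list, a share or a ratio.

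Alternatives were a pseudocount of 0.1, no filter or one of 5 TPM, no trend, quantile normalization, median ratio scaling, leaving out short RNA genes, a replicate block and leaving out each library.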

Additional observations from a re-analysis of the deposited data

How the results depend on the processing

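TWIST1 stayed lower and past the threshold under all 14 alternatives run (log2 change -1.14 to -0.98, limma adjusted p 0.00215 to 0.0420). TWIST2 stayed above 0 and short of the threshold under all 14 (0.34 to 0.50, adjusted p 0.0785 to 0.518). VIM, ZEB1, ZEB2 and SNAI1 stayed below 0 and did not pass under any alternative that could test them; the filter of 5 TPM removed ZEB1, ZEB2 and SNAI1. Their sizes were unsteady: leaving out 1 library gave -0.24 to -0.074 for VIM, -0.44 to -0.019 for ZEB1, -0.21 to -0.018 for ZEB2 and -0.46 to -0.095 for SNAI1, smallest or close to it without control replicate 3 in each. SNAI2 changed sign without control replicate 3 (0.05) and without PI5P4K-depleted replicate 2 (0.059), and CDH1 without control replicate 2 (-0.080) and without PI5P4K-depleted replicate 1 (-0.03); leaving out 1 library gave -0.12 to 0.059 for SNAI2 and -0.080 to 0.42 for CDH1. The cause was not tested. The calls over all genes, 265 with 221 lower and 44 higher, became 106 to 219, 91 to 189 and 13 to 30 when 1 library was left out, and the total was 106 when control replicate 3 was dropped, 119 for PI5P4K-depleted replicate 3 and 163 for PI5P4K-depleted replicate 1. Calls in the 9 EMT lists, 2 in all, became 4 without short RNA genes and 2 to 4 without 1 library (4 without control replicate 1).

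With the replicate block, 881 genes passed (597 lower, 284 higher), 20 of them in the 9 lists and 8 of these mesenchymal products, and CDH3 (0.56, adjusted p 0.00530, against 0.00530 to 0.627 over its alternatives) and CDH2 (-0.41, adjusted p 0.0476, against 0.0476 to 0.928) passed. Deviations of same-numbered samples correlated at 0.25, 0.27 and -0.02. Control replicates 1 and 2 correlated best with their own number, and control replicate 3 with another number, at 0.05. These values do not settle whether the numbers pair the samples. The unblocked fit was the main one and its values are those given above, so whether CDH3 and CDH2 pass depends on this choice.

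With 3 libraries a group and unknown depth, the 95% intervals of SNAI1, SNAI2, ZEB1, ZEB2, VIM, CDH1 and CDH2 include changes of either sign.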
